A study of Zea mays with 18 samples.

Results

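The transcriptome of zmnrt1.1b roots was set against that of wild-type (WT) maize roots 2 h after NO3- was given. Members were all genes of the deposited table, compared between the 3 zmnrt1.1b and the 3 WT libraries of KNO3-treated seedlings, which are 6 of the 18 libraries of the series. Of 47334 genes listed, 26011 reached at least 1 FPKM (read counts scaled to gene length and library size) in at least 3 libraries and were tested.

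zmnrt1.1b seedlings carry a CRISPR/Cas9 loss-of-function allele of the nitrate transporter gene ZmNRT1.1B made in the inbred ND101. The labels call the mutant a knockdown, and which edited line and which wild type were sequenced is not given in the sources used here. All seedlings had complete nutrients for 10 days, were starved of nitrogen for 4 days and then received 5 mM KNO3, or 5 mM KCl as the control salt, for 2 h before roots were taken. The other libraries come from zmnrt1.1b and WT under KCl and from a second mutant, zmnlp3.1 (a loss-of-function allele of an NLP gene), under both salts, with 3 libraries per group. Nothing in the labels says whether libraries of a group came from separate plants or pools, so p-values measure the spread between these libraries.

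NRT1.1-type proteins of the NRT1/PTR family carry nitrate across the plasma membrane, and in Arabidopsis NRT1.1 also acts as a nitrate sensor. In plants, nitrate entering a nitrogen-starved root within hours induces genes for its own uptake and reduction, for reducing power, and for cytokinin synthesis and response. NIN-like proteins (NLPs) are the transcription factors that drive much of this primary nitrate response.

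The recovered depth was 16956831 to 17770002 reads in the zmnrt1.1b KNO3 libraries and 18220755 to 19116969 reads in the WT KNO3 libraries. Pearson's r of log2 values between libraries was 0.938 to 0.962 within zmnrt1.1b and 0.964 to 0.969 within WT, against 0.907 to 0.935 between the genotypes. Replicate 2 of zmnrt1.1b had the lowest correlations within its group. Green tissue markers summed to 40.9 to 50.1 FPKM in zmnrt1.1b, against 65.1 to 78.9 FPKM in WT, over 81 genes of which 20 were at 0 in all libraries. Seed storage markers summed to at most 3.49 FPKM in zmnrt1.1b, against 3.95 FPKM in WT.

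Under KNO3, 826 genes were higher and 875 were lower in zmnrt1.1b than in WT at an adjusted p below 0.05 and a log2 difference beyond 1 (limma, Benjamini-Hochberg), which is 3.18% and 3.36% of the genes tested. Without the size limit, 2055 genes (7.9%) were higher and 2513 (9.66%) were lower. The median log2 difference was 1.58 among the higher genes and -1.35 among the lower genes, and -0.03 over all genes tested. The zmnrt1.1b libraries all lay above the WT libraries for 800 of the 826 higher genes and all lay below them for 859 of the 875 lower genes. Over all tested genes the libraries were separated in these directions for 14.7% and 18.4%. Changes beyond 3 on the log2 scale were found for 85 higher and 30 lower genes.

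**Figure D1:**
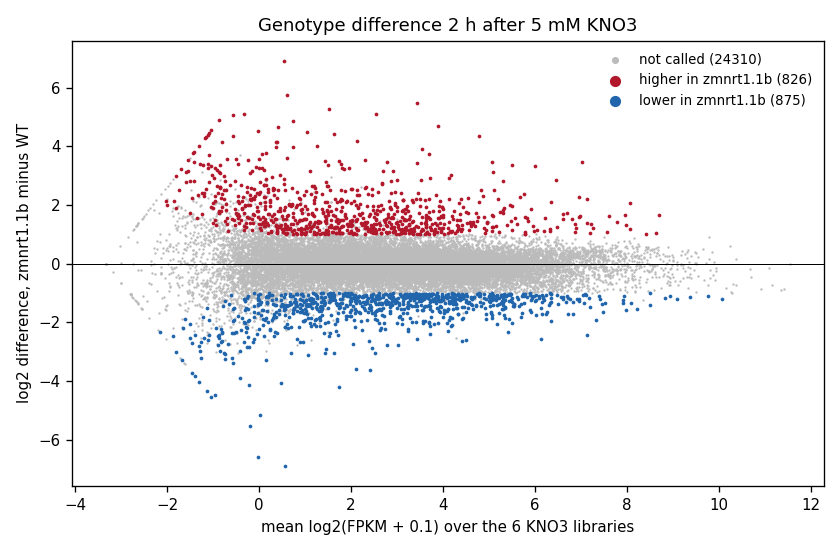
Log2 difference (zmnrt1.1b minus WT under KNO3) of each of 26011 genes against its mean log2(FPKM + 0.1) over the 6 libraries, with called genes in red (higher) and blue (lower). The 826 higher and 875 lower genes lie on both sides of 0 over a wide range of expression.

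Of the 10 largest increases among described genes, 7 were in genes with known or probable defence roles. Zeamatin (gene_Zm00001d021901, chromosome 7, 165699754 to 165700437, minus strand, B73 RefGen_v4), an antifungal thaumatin-like protein, measured 75.9, 62.3 and 77.6 FPKM in zmnrt1.1b, against 1.08, 1.65 and 1.92 FPKM in WT. Its log2 difference was 5.48 ± 0.29 (SE, limma adjusted p = 2.09e-08). A second thaumatin-like gene (Zm00001d031158) measured 77.4, 58.5 and 97.9 FPKM in zmnrt1.1b against 2.16, 2.48 and 4.14 FPKM in WT, and the pathogenesis-related thaumatin-like protein 3.2 gene (Zm00001d013610) 19.5, 10.04 and 14.9 FPKM in zmnrt1.1b against 0.428, 0.597 and 0.690 FPKM in WT. Their log2 differences were 4.71 and 4.44 (limma adjusted p = 0.000143 and 5.55e-07). Kiwellin-1 (Zm00001d013945), a secreted protein known in maize from the response to smut fungus, averaged 125 ± 23.2 FPKM in zmnrt1.1b, against 6.09 ± 1.33 FPKM in WT (SD, n = 3 each; log2 difference 4.34, limma adjusted p = 3.05e-07).

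Both (S)-beta-macrocarpene synthase genes named here (gene_Zm00001d024207 and gene_Zm00001d024210 on chromosome 10), which make the terpene precursor of the zealexin defence compounds, were higher by 5.29 and 5.10. The gene_Zm00001d024210 libraries measured 55.6, 19.1 and 36.8 FPKM in zmnrt1.1b, against 0.112, 1.93 and 2.17 FPKM in WT (limma adjusted p = 0.000535). Zealexin A1 synthase (Zm00001d014121), which oxidises macrocarpene, was higher by 4.65, at 7.81 ± 5.15 FPKM in zmnrt1.1b, against 0.195 ± 0.146 FPKM in WT (SD, n = 3 each; limma adjusted p = 0.000398). The macrocarpene synthases are closely related neighbours, so the split of reads between them is uncertain. The libraries of zmnrt1.1b varied several-fold for these 3 genes, with replicate 2 the highest and replicate 4 the lowest, but none came near the WT range. Among genes without a description, gene_Zm00001d049288 had 10.2, 7.55 and 17.5 FPKM in zmnrt1.1b, against 0, 0.0894 and 0.362 FPKM in WT (log2 difference 5.76, limma adjusted p = 3.24e-06). An unannotated locus on chromosome 5 (57319055 to 57320280) had 18.8, 15.6 and 13.7 FPKM in zmnrt1.1b, against 0.0518, 0 and 0.0521 FPKM in WT (log2 difference 6.92, limma adjusted p = 9.63e-05).

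Pathogenesis-related proteins and protease inhibitors formed 159 tested genes, of which 32 were called higher (20.1%) and 9 lower (5.66%) in zmnrt1.1b, beside 3.18% and 3.36% of all genes. The list's median log2 difference was 0.18. Of its 24 chitinase genes 10 were higher and 1 was lower, and of 6 kiwellin and barwin genes 5 were higher. Of its 30 thaumatin-type genes 6 were higher and 5 were lower, so the large increases named above were not shared by that whole family. Glutathione transferases, which conjugate reactive compounds to glutathione, had 12 higher (21.1%) and 2 lower (3.51%) of 57 tested. With WT replicate 3 left out, 7 were higher. Glutathione S-transferase 4 (gene_Zm00001d043344) measured 93.3, 61.3 and 87.3 FPKM in zmnrt1.1b, against 14.4, 19.0 and 18.2 FPKM in WT (log2 difference 2.21, limma adjusted p = 8.34e-05).

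Class III peroxidases, which act in the cell wall, were called in both directions, with 14 higher (12.4%) and 10 lower (8.85%) of 113 tested. Over all genes, 3.18% were higher and 3.36% lower. Cationic peroxidase SPC4 (gene_Zm00001d042022) had 281, 185 and 247 FPKM in zmnrt1.1b, against 31.2, 30.3 and 36.6 FPKM in WT, a log2 difference of 2.84 ± 0.17 (SE, limma adjusted p = 5.86e-08). WRKY factors, many of which regulate defence genes, were higher for 11 and lower for 7 of 97 (11.3% and 7.22%). Expansin-A7 (Zm00001d012957), a wall-loosening protein, averaged 36.8 ± 11.5 FPKM in zmnrt1.1b, against 3.30 ± 0.837 FPKM in WT (SD, n = 3 each; limma adjusted p = 3.74e-06). Pyruvate decarboxylase 1 (Zm00001d010588), the entry enzyme of ethanol fermentation, measured 17.4, 20.6 and 32.8 FPKM in zmnrt1.1b against 0.999, 2.89 and 2.57 FPKM in WT (log2 difference 3.47, limma adjusted p = 5.22e-05). Sulfate transporter 1.3 (Zm00001d050283) was higher by 2.41 and inorganic phosphate transporter 1-11 (gene_Zm00001d011498) by 3.16 (limma adjusted p = 7.27e-06 and 0.000256).

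**Figure D2:**
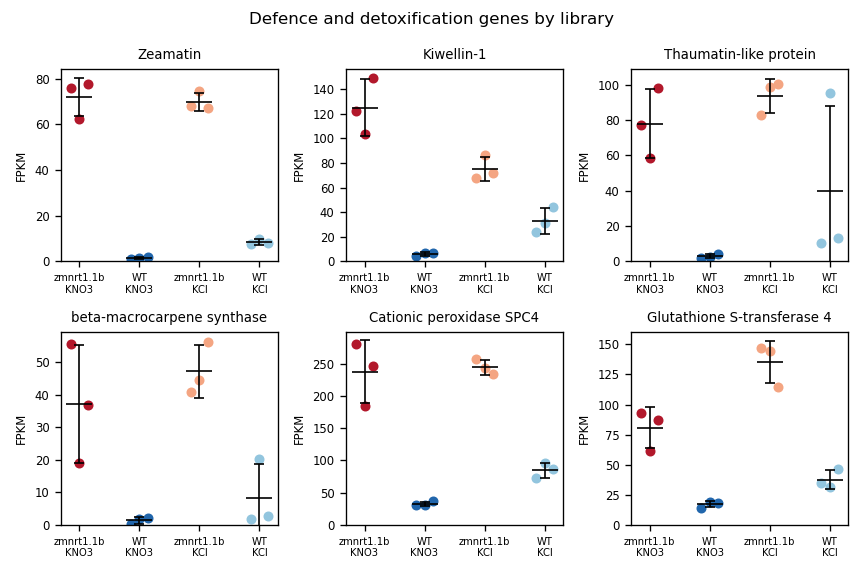
FPKM of 6 defence and detoxification genes in each library (dots), with the mean and SD of each group (bars, n = 3). Under KNO3 every zmnrt1.1b library lies above every WT library for all 6 genes. Such separation was required of genes named for the largest differences. The WT mean is higher under KCl than under KNO3 for all 6, as for zeamatin at 8.52 against 1.55 FPKM. For the thaumatin-like gene 1 WT library under KCl reached 95.4 FPKM.

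Of 4 tested nitrate reductase genes 1 was called, lower in zmnrt1.1b. Nitrate reductase [NADH] 1 (Zm00001d049995, chromosome 4), which reduces nitrate to nitrite, had 167, 91.7 and 103 FPKM in zmnrt1.1b, against 256, 349 and 281 FPKM in WT, a log2 difference of -1.33 ± 0.23 (SE, limma adjusted p = 0.000898). The most abundant nitrate reductase gene (Zm00001d018206) had 638, 417 and 423 FPKM in zmnrt1.1b, against 747, 1016 and 839 FPKM in WT. Its difference of -0.83 had an adjusted p of 0.0234 (limma) and was under the size limit, though the libraries did not overlap. It was called lower without zmnrt1.1b replicate 2. The other two, Zm00001d031769 and gene_Zm00001d017025, had differences of -0.50 and -0.63 (limma adjusted p = 0.255 and 0.38).

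None of 4 nitrite reductase genes was called. The leading one (Zm00001d018161) measured 1115, 697 and 801 FPKM in zmnrt1.1b, against 1478, 1655 and 1414 FPKM in WT, a difference of -0.82 with an adjusted p of 0.0903 (limma). Ferredoxin-6 (Zm00001d010136), a root ferredoxin-type electron carrier, was lower at 111, 92.9 and 98.8 FPKM in zmnrt1.1b against 266, 348 and 334 FPKM in WT (log2 difference -1.64, limma adjusted p = 0.000473). The uroporphyrinogen methyltransferase gene (Zm00001d011428), which serves the synthesis of siroheme, the cofactor of nitrite reductase, was lower by 1.28 on the log2 scale (limma adjusted p = 0.000531). It averaged 27.8 ± 3.07 FPKM in zmnrt1.1b, against 67.4 ± 5.97 FPKM in WT (SD, n = 3 each).

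None of 6 tested high-affinity uptake genes was called, with 4 differences below 0 and 2 above. High-affinity nitrate transporter 2.1 (gene_Zm00001d054060) had 1191, 442 and 598 FPKM in zmnrt1.1b, against 1001, 1190 and 818 FPKM in WT, with overlapping libraries and a difference of -0.54 ± 0.56 (SE, limma adjusted p = 0.529). Its inverted copy gene_Zm00001d054057 differed by -0.45, and reads may be shared between the copies. The transporter-activating protein NAR2 gene (Zm00001d017095) had 2036, 1437 and 1926 FPKM in zmnrt1.1b, against 2850, 3248 and 2841 FPKM in WT, with no overlap but an adjusted p of 0.149 (limma, log2 difference -0.74). One further transporter gene (Zm00001d044504) was at -0.89 (limma adjusted p = 0.0217), under the size limit, and was called lower without WT replicate 4 or without zmnrt1.1b replicate 2. High-affinity nitrate transporter 2.3 (Zm00001d011679) was at 0.61 (limma adjusted p = 0.221). The activating protein 2.2 gene (Zm00001d003287) was at 0.89 (limma adjusted p = 0.119), with no overlap of the libraries but low values in both genotypes.

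The study names ZmNRT1.1B by an older gene model ID, and neither the deposited table nor the gene table used here pairs that ID or name with the IDs of the deposited table. The level of the edited gene is therefore not analysed here, and a small edit need not change it. Of 3 tested genes described as NRT1/PTR FAMILY 6.3, Zm00001d029932 had 231, 122 and 167 FPKM in zmnrt1.1b, against 171, 198 and 179 FPKM in WT under KNO3, a difference of -0.12 (limma adjusted p = 0.777). Under KCl it was higher in zmnrt1.1b, at 148, 147 and 125 FPKM against 63.7, 52.6 and 71.1 FPKM in WT (log2 difference 1.17, limma adjusted p = 0.0151). Zm00001d024587 and Zm00001d027285 differed by 0.06 and 1.07 under KNO3 (limma adjusted p = 0.822 and 0.0526), and Zm00001d027285 was called higher in 3 of 13 alternatives (with the replicate block, without WT replicate 4 and without zmnrt1.1b replicate 5). Over the whole NRT1/PTR family, 7 of 52 tested genes were higher (13.5%) and 4 lower (7.69%), beside 3.18% and 3.36% of all genes. NRT1/PTR FAMILY 8.1 (Zm00001d012138) was at 13.9 ± 3.28 FPKM in zmnrt1.1b, against 3.71 ± 0.896 FPKM in WT (SD, n = 3 each, limma adjusted p = 0.00028).

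None of the 10 tested NLP genes was called. An NLP3-described gene (Zm00001d039266) had 7.05, 6.09 and 6.63 FPKM in zmnrt1.1b, against 11.2, 12.7 and 9.75 FPKM in WT, a difference of -0.75 (limma adjusted p = 0.00257) that was under the size limit. The NLP1-described genes Zm00001d021442 and Zm00001d006293 were at 0.48 and 0.55 (limma adjusted p = 0.0134 and 0.0202). The repressor HHO5 (gene_Zm00001d034160), one of a family that limits nitrate-responsive genes in Arabidopsis and rice, was lower in zmnrt1.1b at 21.6, 30.7 and 33.6 FPKM against 51.1, 63.8 and 68.6 FPKM in WT (log2 difference -1.11, limma adjusted p = 0.000627), a call that was lost without zmnrt1.1b replicate 2. Of 3 BTB-TAZ genes, a family with a nitrate-responsive member in Arabidopsis, 2 were lower, of which Zm00001d025707 (-1.10, limma adjusted p = 0.00797) lost its call without WT replicate 3 and with the replicate block. The leading one (gene_Zm00001d042443) had 170, 174 and 180 FPKM in zmnrt1.1b, against 439, 564 and 531 FPKM in WT (log2 difference -1.54, limma adjusted p = 0.00031).

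Calcineurin B-like proteins and their interacting kinases (CBL-CIPK), which relay calcium signals, had 4 of 50 tested genes lower (8%) and none higher. At any size, 13 were lower and none higher at an adjusted p below 0.05 (limma). Over all genes, 3.36% were lower at the size limit and 9.66% at any size. CIPK31 (gene_Zm00001d028949) had 26.2, 26.6 and 34.7 FPKM in zmnrt1.1b, against 74.6, 77.4 and 71.7 FPKM in WT (log2 difference -1.36, limma adjusted p = 1.46e-05). The factor bHLH128 (Zm00001d042482) had 43.5, 39.8 and 42.9 FPKM in zmnrt1.1b, against 143, 142 and 126 FPKM in WT (log2 difference -1.70, limma adjusted p = 1.3e-05).

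Cytokinin genes were lower in zmnrt1.1b wherever they were called. Of 52 tested, 20 were lower (38.5%, beside 3.36% of all genes) and none was higher. The median log2 difference was -0.61, beside -0.03 over all genes. Those lower comprised 6 of 9 cytokinin dehydrogenases, which degrade the hormone, both cytokinin hydroxylases, which make trans-zeatin, 5 of 15 response regulators, 3 of 11 histidine kinases, 3 of 9 LOG-type activating enzymes and 1 of 3 isopentenyltransferases. Cytokinin hydroxylase Zm00001d020418 had 2.82, 3.55 and 3.18 FPKM in zmnrt1.1b, against 13.96, 11.7 and 13.9 FPKM in WT (log2 difference -2.02, limma adjusted p = 4.67e-06). Cytokinin dehydrogenase 7 (Zm00001d053579) had 1.69, 0.448 and 0.929 FPKM in zmnrt1.1b, against 5.89, 9.21 and 7.74 FPKM in WT (log2 difference -2.92, limma adjusted p = 0.00496). Two-component response regulator ORR10 (Zm00001d023242), the most abundant lower member, had a log2 difference of -1.49 (limma adjusted p = 2.3e-05).

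**Figure D3:**
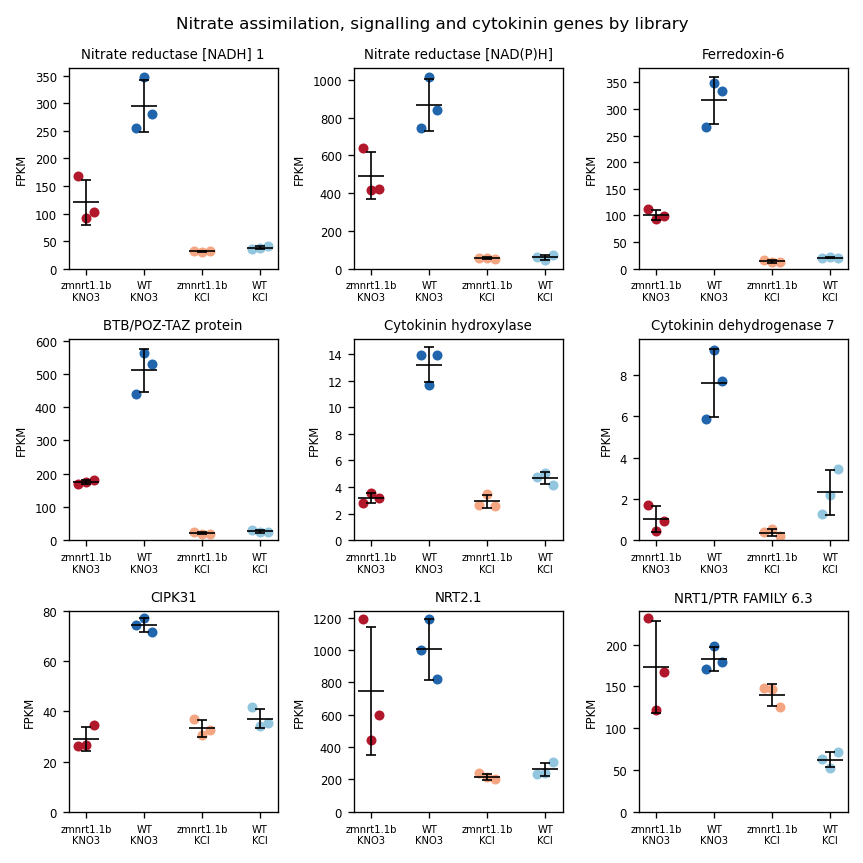
FPKM of 9 genes of nitrate assimilation, signalling and cytokinin metabolism in each library (dots), with the mean and SD of each group (bars, n = 3). Under KNO3 the zmnrt1.1b libraries lie below the WT libraries in all panels but the last 2, the NRT2.1 and NRT1/PTR FAMILY 6.3 genes, where they overlap.

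Other lists were called in both directions or seldom. Over all genes tested, 3.18% were called higher and 3.36% lower. MYB factors had 11 higher and 17 lower of 142, NAC factors 4 and 10 of 85, bHLH factors 2 and 9 of 96, and jasmonate genes 4 and 11 of 78. Auxin genes had 5 higher and 8 lower of 135 (3.70% and 5.93%), and AP2/ERF factors 11 and 15 of 143 (7.69% and 10.5%). IAA16 (gene_Zm00001d010360), an auxin-response repressor, had 1.01, 2.04 and 3.45 FPKM in zmnrt1.1b, against 18.1, 12.8 and 13.8 FPKM in WT (log2 difference -2.86, limma adjusted p = 0.000134). Ethylene genes had 4 higher and 3 lower of 34 (11.8% and 8.82%). LOB domain factors had 3 and 1 of 24 (12.5% and 4.17%), and glutaredoxins 2 and 2 of 26 (7.69% each). Phenylpropanoid and flavonoid genes had 10 higher and 13 lower of 132 (7.58% and 9.85%). Cell wall loosening genes had 8 and 6 of 105 (7.62% and 5.71%), and sucrose, trehalose and starch genes 6 and 7 of 104 (5.77% and 6.73%). Phosphate genes had 2 higher and 3 lower of 42 (4.76% and 7.14%), and heat shock proteins 4 and 3 of 83 (4.82% and 3.61%). A list of terpenoid and benzoxazinoid defence genes, assembled after values were seen, had 8 and 4 of 41 (19.5% and 9.76%). Of 94 bZIP factors 2 were lower (2.13%), of 33 oxidative pentose phosphate and ferredoxin genes 2 (6.06%). Of 23 ammonium transport and assimilation genes 1 was lower (4.35%). Of 120 organic acid and glycolysis genes 1 was higher (0.833%), of 15 sulfate genes 1 (6.67%). Of 13 fermentation genes 2 were higher (15.4%), and of 57 histone genes 1 (1.75%). Of 34 aquaporin genes none was called. Cytosolic ribosomal protein genes had 2 of 284 called higher (0.704%), but at any size 57 were higher and none lower. Over all genes tested, 7.9% were higher at any size. The median log2 difference of the ribosomal protein genes was 0.35. Casparian strip membrane proteins, which mark the root endodermis, were lower for 4 of 6 genes and summed to 19.8 to 43.8 FPKM in zmnrt1.1b against 52.5 to 85.0 FPKM in WT. Leaving out 1 library or changing the fit ended the call of each of the 4 in at least 1 alternative. The 47 root markers were Casparian strip, aquaporin and high-affinity nitrate transporter genes, with 6 genes at 0 in all libraries. They summed to 4778 to 8533 FPKM in zmnrt1.1b, against 8494 to 10085 FPKM in WT. This sum holds nitrate uptake genes reported above, and in WT under KCl it was lower, at 6329 to 7316 FPKM. The part of these markers in the other differences was not tested. Fewer cells of a type and less RNA per cell cannot be told apart in whole roots.

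**Figure D4:**
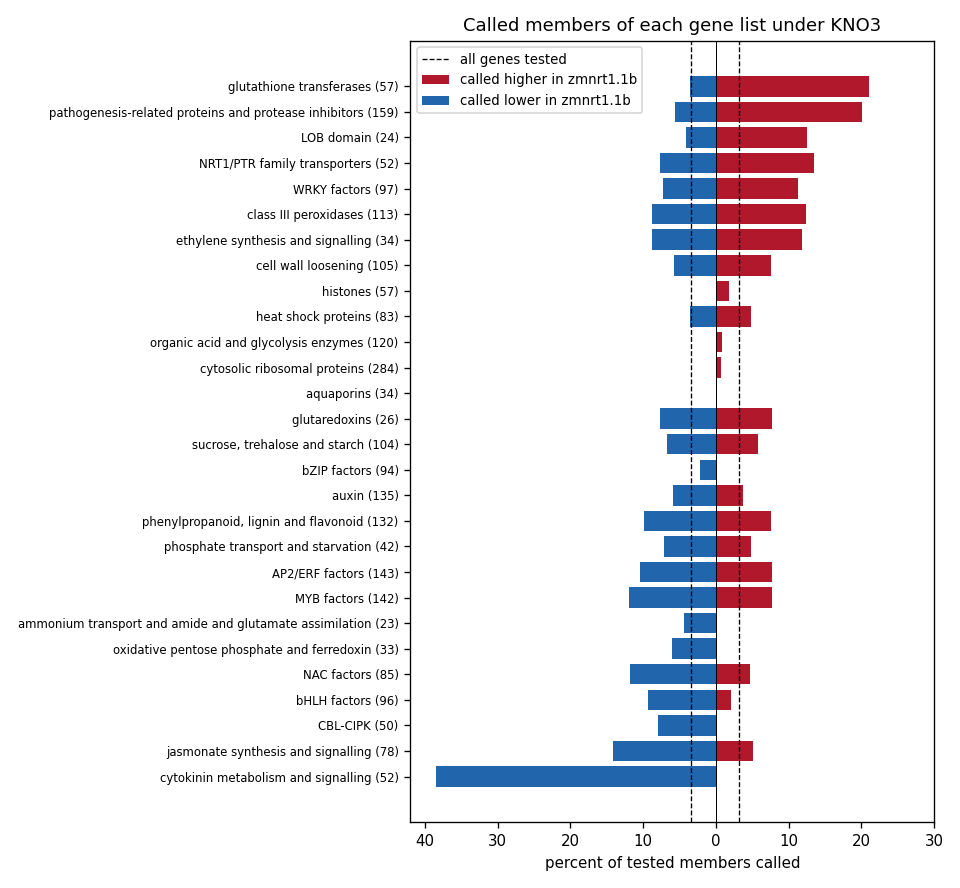
Percent of tested members called lower (left, blue) or higher (right, red) in zmnrt1.1b under KNO3 in lists with at least 20 tested genes, with the share over all genes tested as dashed lines (3.36% and 3.18%). The cytokinin list extends farthest to the left at 38.5%, and glutathione transferases and pathogenesis-related proteins farthest to the right.

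Among the other large decreases, O-methyltransferase ZRP4 (Zm00001d038703), known in maize as a root-preferential enzyme, had 0.664, 1.40 and 2.92 FPKM in zmnrt1.1b against 27.9, 15.3 and 14.6 FPKM in WT (log2 difference -3.62, limma adjusted p = 0.000342). BX6 (Zm00001d044954), a dioxygenase of benzoxazinoid defence compounds, had 0.983, 2.84 and 2.83 FPKM in zmnrt1.1b against 13.2, 14.8 and 11.6 FPKM in WT (log2 difference -2.65, limma adjusted p = 4.59e-05). Alpha-terpineol synthase (Zm00001d035682) had 2.32, 2.35 and 3.01 FPKM in zmnrt1.1b against 22.7, 15.7 and 16.3 FPKM in WT. These defence-related enzymes were called in the direction opposite to the zealexin genes.

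The same genotype contrast under KCl, in libraries shared with none of the KNO3 groups, called 298 genes higher (1.15%) and 238 lower (0.915%) in zmnrt1.1b. All groups were fitted together, so both contrasts share the variance estimate of each gene. Genes with a low estimate are more readily called in both, so the overlaps of calls below are not independent. Of the genes called under KNO3, 176 were also called higher under KCl (21.3% of the higher genes and 59.1% of those higher under KCl) and 108 were also called lower (12.3% and 45.4%), while 5 were called in opposite directions. These 5, picked after their values were seen, were a malate transporter gene (Zm00001d017571), at 1.42 under KNO3 and -1.29 under KCl, and the genes Zm00001d008222, Zm00001d022430, Zm00001d035665 and gene_Zm00001d023430, at -1.09 to -1.33 under KNO3 and 1.25 to 1.73 under KCl. Among the genes called higher under KNO3, 743 of 826 also had a positive difference under KCl, with a median of 0.78. Among those called lower, 738 of 875 had a negative one, with a median of -0.55. Picking by the KNO3 difference favours smaller KCl values. Genes called higher under KCl had medians of 1.51 under KCl and 1.48 under KNO3, and those called lower -1.40 and -0.98. Zeamatin (gene_Zm00001d021901) was higher under KCl too, at 67.9, 74.5 and 67.0 FPKM in zmnrt1.1b, against 7.79, 9.87 and 7.90 FPKM in WT (log2 difference 3.03, limma adjusted p = 3.86e-05). In the cytokinin list 1 gene was called lower under KCl and none higher, with a list median of -0.14. For several defence genes WT replicate 2 under KCl stood apart, as for the thaumatin-like gene Zm00001d031158 with 82.7, 98.4 and 100.2 FPKM in zmnrt1.1b, against 10.7, 95.4 and 13.4 FPKM in WT (limma adjusted p = 0.106). Histone genes had a median of 0.29 under KNO3 and -0.55 under KCl, and cytosolic ribosomal protein genes 0.35 and -0.22.

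The difference between the 2 contrasts was tested as an interaction, which 393 genes (1.51%) passed at an adjusted p below 0.05 (limma). Of the genes called under KNO3, 55 higher and 102 lower ones passed it in the same direction. The interaction contains the KNO3 difference by which these genes were picked, so the picking favours this direction. The count depended on the fit and on single libraries. It was 1182 with the replicate number as a block and 622 with only the groups compared, and leaving out 1 library gave 77 (without zmnrt1.1b KCl replicate 2) to 495 genes (without WT KNO3 replicate 4). The 5 smallest p-values belonged to 4 described regulators and 1 undescribed gene, all with negative differences under KNO3 and positive ones under KCl. B-box zinc finger protein 25 (Zm00001d017147) had 79.8, 76.9 and 84.7 FPKM in zmnrt1.1b, against 182, 183 and 186 FPKM in WT under KNO3, and 154, 133 and 140 FPKM in zmnrt1.1b against 96.7, 71.0 and 67.2 FPKM in WT under KCl (interaction -2.07, limma adjusted p = 0.000586). APETALA2-like protein 1 (Zm00001d010987) had differences of -0.94 under KNO3 and 0.78 under KCl (limma adjusted p = 0.000533 for the interaction).

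**Figure D5:**
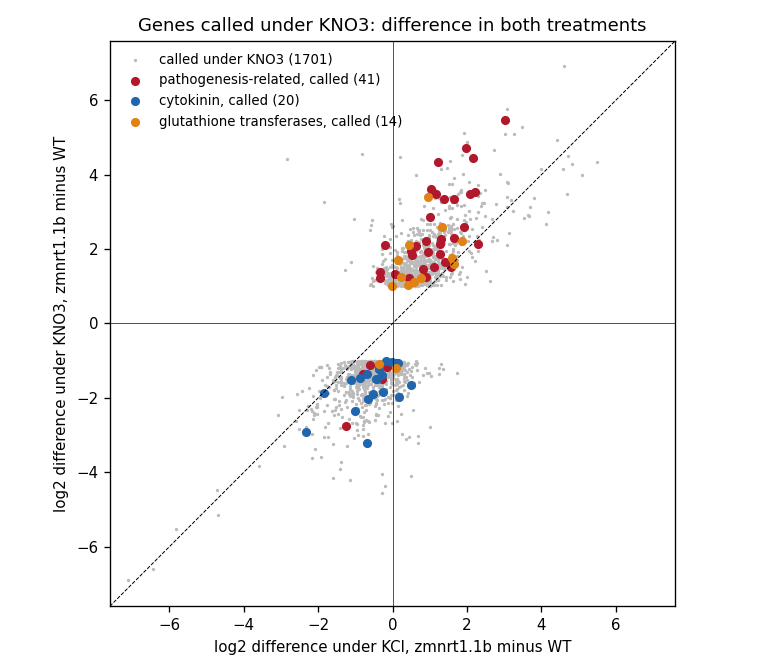
Log2 difference (zmnrt1.1b minus WT) under KNO3 against that under KCl for the 1701 genes called under KNO3, with called members of 3 lists in colour and the line of equal differences dashed. Most genes have the same sign in both treatments. All were picked by their KNO3 difference, which favours smaller differences under KCl, also for the 20 called cytokinin genes.

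A list of nitrate-responsive genes was taken from zmnlp3.1, whose libraries are in neither arm of the contrast. All groups were fitted together, so the list and the contrast share the variance estimate of each gene. Genes with a low estimate are more readily called in both, so the shares below are not independent of the list. KNO3 raised 453 genes (1.74%) and lowered 595 (2.29%) there. Of the 453, 78 were lower (17.2%, beside 3.36% of all genes) and 8 higher (1.77%, beside 3.18%) in zmnrt1.1b than in WT under KNO3. The median log2 difference of the 453 was -0.44. The median of each zmnrt1.1b library over these genes was -0.42, -0.49 and -0.38. Under KCl 25 of them were lower (5.52%, beside 0.915% of all genes) and 15 higher (3.31%, beside 1.15%), with a median of -0.21. Of the 595, 109 were higher (18.3%) and 34 lower (5.71%) in zmnrt1.1b under KNO3, with a median of 0.16. Under KCl 60 of the 595 were higher (10.1%) and 14 lower (2.35%), with a median of 0.25.

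The 2 mutants were each set against the same WT libraries under KNO3, so their values are given side by side. Nitrate reductase (Zm00001d049995) was at -1.33 in zmnrt1.1b, against -1.89 in zmnlp3.1, and gene_Zm00001d042443 of the BTB-TAZ family at -1.54 and -3.38. High-affinity nitrate transporter 2.1 (gene_Zm00001d054060) was at -0.54 in zmnrt1.1b, against -2.03 in zmnlp3.1. Zeamatin (gene_Zm00001d021901) was at 5.48 in zmnrt1.1b, against 2.78 in zmnlp3.1. Cytokinin hydroxylase (Zm00001d020418) was at -2.02 in zmnrt1.1b, against -0.11 in zmnlp3.1. Other named cytokinin genes were lower in both mutants. The other cytokinin hydroxylase (Zm00001d050371) was at -2.353 in zmnrt1.1b, against -1.499 in zmnlp3.1. Cytokinin dehydrogenase 7 (Zm00001d053579) was at -2.92 and -2.555, and a probable histidine kinase gene (Zm00001d035846) at -3.213 and -3.104. The cytokinin list as a whole was not tested in zmnlp3.1. Glutathione S-transferase 4 (gene_Zm00001d043344) was at 2.21 in zmnrt1.1b, against -0.42 in zmnlp3.1.

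Called genes lay on all 10 chromosomes, from 5.87% to 7.36% of the tested genes of each, and only 2 of 212 windows of 10 Mb with at least 20 tested genes held none. The highest share of a window was 19.1% and the median 6.44%. A few genes were near 0 in zmnrt1.1b or in WT under both salts. Zm00001d045629 (chromosome 9, 29279184 to 29282692) had 0 reads in all 6 zmnrt1.1b libraries and 375 to 454 reads in the WT KNO3 libraries, where it averaged 9.70 FPKM, at least 136-fold above a floor of 3 reads per library. In zmnlp3.1 under KNO3 it was read in every library, at 12.8, 12.5 and 15.1 FPKM. Its neighbour Zm00001d045631 measured 0.146, 0 and 0 FPKM in zmnrt1.1b, against 17.6, 15.9 and 14.8 FPKM in WT under KNO3. On chromosome 7, the RNA-binding protein RBP47 gene (Zm00001d021149) measured 0, 0 and 0.111 FPKM in zmnrt1.1b, against 15.5, 3.18 and 4.02 FPKM in WT, and the adjacent Zm00001d021150 0, 0.0283 and 0 FPKM in zmnrt1.1b, against 4.23, 1.62 and 1.75 FPKM in WT. In the other direction, an unannotated locus on chromosome 3 (147126271 to 147134381) had 15 to 39 reads in zmnrt1.1b under KNO3 and 0 reads in all WT libraries, at least 10.2-fold above the same floor, and was also read in 2 of the 3 zmnlp3.1 KNO3 libraries. Zm00001d021150, the chromosome 3 locus and the Casparian strip genes were picked after their values were seen.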

How the data were processed

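RNA-seq was done on maize roots. Per the labels, the deposited values are FPKM, made by the authors with fastp, HISAT2 2.0.5 and StringTie 1.3.3b on the B73 RefGen_v4 genome; the scaling between libraries and the read counter are not given in the sources used here. Every value was a whole number of reads within 0.05 of a read, so reads were recovered for depth and for 1 alternative. Median-ratio factors computed from the deposited values were 1.00751 in every library, so the values were already even by that measure. No column of the authors' own comparisons was used.

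Genes with at least 1 FPKM in at least 3 libraries were fitted as log2(FPKM + 0.1) with limma 3.58.1 (R 4.3.3), a variance trend and all 6 groups (12 residual degrees of freedom). A fold change on this scale understates the change of low genes. Genes were called at an adjusted p below 0.05 and a log2 difference beyond 1. Summaries used Python 3.11.15, and the fit was tested on simulated data.

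Groups followed the labels. Members, lists and tests were chosen with earlier results of these data known. Named genes were the 10 largest called differences in each direction that were described, separated by library and averaged 5 FPKM or more in the higher genotype, 2 each without a description, up to 4 called genes per list, the nitrate uptake and reduction genes, and the 5 smallest interaction p-values. List members were matched by protein description, and 1 list, of terpenoid and benzoxazinoid defence genes, was assembled after values were seen. Gene descriptions are those of the deposited table. Library preparation did not mark strand as far as stated, so overlapping genes may share reads.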

Additional observations from a re-analysis of the deposited data

Results flagged for a closer look

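The genes here had genotype differences that differed between KNO3 and KCl by the interaction test (limma adjusted p below 0.05). Values are the KNO3 difference minus the KCl difference on the log2 scale. Genes named for their KNO3 difference were picked by a value that enters the interaction, which favours a larger difference under KNO3. How many genes passed this test depended on the fit and on single libraries, as given above. Defence and stress genes with a larger difference under KNO3 were Kiwellin-1 (Zm00001d013945, 3.13), zeamatin (gene_Zm00001d021901, 2.45), pathogenesis-related thaumatin-like protein 3.2 (Zm00001d013610, 2.28), pyruvate decarboxylase 1 (Zm00001d010588, 2.52) and cationic peroxidase SPC4 (gene_Zm00001d042022, 1.3). Further positive values were 2.78 for histone H3.2 (gene_Zm00001d025381), 2.22 for a polygalacturonase gene (Zm00001d009167), 1.86 for phosphate transporter PHO1-2 (Zm00001d051945), 1.75 for ribosomal protein L26-1 (Zm00001d049904) and 1.12 for a trehalose-phosphate phosphatase gene (gene_Zm00001d029371).

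Negative values included those of several regulators. B-box zinc finger proteins 25 (Zm00001d017147) and 19 (gene_Zm00001d021278) were at -2.07 and -1.86, APETALA2-like protein 1 (Zm00001d010987) at -1.72, CONSTANS-LIKE 5 (gene_Zm00001d046925) at -1.26 and HHO5 (gene_Zm00001d034160) at -1.19. The kinases CIPK31 (gene_Zm00001d028949) and CIPK32 (gene_Zm00001d052416) were at -1.21 and -1.06. An ETHYLENE INSENSITIVE 3 gene (Zm00001d016924) was at -2.65, BX6 (Zm00001d044954) at -2.02, cytokinin hydroxylase (Zm00001d020418) at -1.36, monothiol glutaredoxin-S5 (gene_Zm00001d011543) at -1.36 and the undescribed gene_Zm00001d048313 at -1.95.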

How the results depend on the processing

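The counts under KNO3, 826 higher and 875 lower, stayed within 1.5 times under every alternative, at 570 to 986 and 609 to 964. Without 1 library they ranged over 640 to 945 and 635 to 881. The genes behind the counts changed in part. Of the 826 and 875 calls, 606 and 621 were kept with the replicate block, and 631 and 596 without WT KNO3 replicate 1. The counts under KCl ranged without 1 library over 175 to 251 higher (175 and 177 without zmnrt1.1b replicates 2 and 3) and 156 to 194 lower (156 without WT replicate 1). The interaction count of 393 was 1182 with the replicate block and 622 with only the groups compared, and 77 to 495 without 1 library (118 and 121 without WT KNO3 replicates 3 and 1, 147 and 162 without WT KCl replicates 3 and 2, 77 and 205 without zmnrt1.1b KCl replicates 2 and 4, 214 without zmnrt1.1b KNO3 replicate 4). With the replicate number as a block, the KNO3 counts were 768 and 784; only number 4 occurs in both groups, and no label ties equal numbers together. The called glutathione transferases ranged over 7 to 10 without 1 library, with 7 without WT replicate 3. Of 126 named called genes, 94 kept their call in all 13 alternatives. Among these alternatives, rescaling by median ratios was nearly the main fit itself (827 higher and 875 lower). Near 0, uncalled genes changed sign: Zm00001d025757 was at 0.034 with the block and 0.049 by voom on recovered reads, and ranged without 1 library over -0.14 to 0.048. The ranges without 1 library were -0.13 to 0.20 for Zm00001d024587, -0.35 to 0.11 for Zm00001d029932, -0.035 to 0.22 for gene_Zm00001d039250 and -0.034 to 0.25 for Zm00001d003176. With 3 libraries per group, smaller changes may have gone undetected.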
